A study of Homo sapiens with 3 samples.

Results

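The solute carriers are membrane transporters that move amino acids, sugars, ions, vitamins, metals and metabolites across the plasma membrane and the membranes of organelles, and they are numbered by family. The genes described here are 141 of the 57773 rows of the deposited expression table. They were chosen by their RPKM values in these libraries, as rows with a symbol made of SLC, a family number, the letter A and a member number (332 rows) that stood at 1 RPKM or more in at least 1 of the 3 libraries. RPKM, reads scaled to gene length and library depth, is a level per gene length. Of the other rows, 8 were left out by name (SLC7A11, SLC3A2, SLC7A5, SLC7A1, SLC38A2, SLC2A1, SLC2A3 and SLC16A3) and 183 stayed below 1 RPKM, 53 of them at 0 in every library. Symbols with another letter, such as SLC35B1 or the SLCO genes, lie outside the pattern and are given near the end.

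The 3 libraries came from derivatives of HaCaT, a spontaneously immortalised human keratinocyte line. All 3 lines, the control included, express HRAS with the oncogenic G12V change. On top of it they carry an empty vector, wild-type THG-1 (the leucine zipper protein encoded by TSC22D4) or THG-1 S264A, which has alanine in place of 1 serine, and all were grown in DMEM with 10% fetal bovine serum. Whether the transduced lines are pools or clones, and which promoter drives THG-1, was not given in the sources used here. Each line has 1 library, so that no spread between cultures is known and no p-value is given. The series title is about inflammatory IL-1 and NF-kB signalling under THG-1, and the lines let each form be set against the empty vector and the forms against each other.

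Families differ in what they carry and where they sit. SLC1, SLC7, SLC38 and SLC43 move mainly amino acids, SLC2 and SLC5 mainly sugars, SLC16 monocarboxylates such as lactate, SLC30 and SLC39 zinc out of and into the cytosol, and SLC25 metabolites across the inner mitochondrial membrane. Keratinocytes take up nutrients from the dermal side through such carriers, and zinc, fatty acid and glutamine carriers are among those known from skin disease or epidermal growth. Members were grouped into 14 substrate classes by family, with some single genes moved where their own substrate is known to differ. SLC43A3 and SLC44A4 were kept with their families, although other substrates are known for them. SLC6A9, which carries the amino acid glycine, was counted with amines, osmolytes and creatine.

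Depths were 32055052 reads with empty vector, 12733479 with wild-type THG-1 and 14022885 with S264A, which puts 3 reads of a 1 kb gene at 0.0936, 0.236 and 0.214 RPKM. TSC22D4 stood at 7.98, 64.9 and 51.1 RPKM in the same order, which fits the labels. All 10 keratinocyte markers were above 1 RPKM in every library, while the lists for fibroblasts, melanocytes, immune and endothelial cells each held 1 gene that reached 1 RPKM. Their summed levels ranged from 4.24 to 4.51 RPKM for 8 fibroblast genes, from 1.15 to 2.07 RPKM for 7 melanocyte genes, from 1.204 to 5.51 RPKM for 8 immune genes and from 0.374 to 1.66 RPKM for 4 endothelial genes. The highest immune sum, with wild-type THG-1, came from CD68 (0.941, 5.21 and 1.70 RPKM), a lysosomal gene that epithelial cells also express, and the leukocyte genes PTPRC and CD3E had at most 1 read in any library. The part of these genes in the results was not tested. In bulk RNA, fewer cells with a transcript and less of it in each cell cannot be told apart.

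Levels spanned a wide range. The mean RPKM of the 3 libraries ran from 0.461 to 168 over the members, with a median of 3.77, and 20 members stood at 10 RPKM or more in every library. In 121 members the 1 RPKM minimum was met in all 3 libraries, in 10 members in 2 libraries and in 10 members in 1 library only. The last 10 passed through the library where they were high and had to differ. They were SLC25A16, SLC2A12, SLC5A1 and SLC6A14 with wild-type THG-1 and SLC10A6, SLC26A9, SLC38A6, SLC39A8, SLC44A3 and SLC7A8 with S264A, and none passed through the empty-vector library alone. Over all genes, 12379 reached 1 RPKM in some library. Of these, 12069 did so with wild type or S264A, 12010 with S264A or empty vector and 11993 with wild type or empty vector. In each case the rest reached it in the remaining library alone. The split of 10 members is too small to set the libraries apart. Just inside the minimum lay SLC36A4 (1.08 RPKM at its highest), SLC10A6 (1.09) and SLC19A2 (1.11), and just outside it SLC10A7 (0.980), SLC25A26 (0.953) and SLC25A20 (0.931).

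Mitochondrial carriers held the largest summed level of the 14 classes, 492 RPKM with empty vector, 488 with wild-type THG-1 and 435 with S264A. Amino acid and peptide carriers (142, 177 and 166 RPKM) and metal carriers (138, 147 and 139 RPKM) followed. Organic ion carriers, with 2 members, were lowest at 2.42, 2.30 and 2.38 RPKM. The summed level of sugar and polyol carriers was 32.7, 51.6 and 47.4 RPKM and that of phosphate carriers 24.8, 41.5 and 39.8 RPKM, and the empty-vector line stood lowest in these and in 11 of the 14 classes in all. The sum over all rows was likewise lowest with empty vector, at 265450, 296474 and 273690 RPKM, beside 1107, 1258 and 1164 RPKM for all members. Sums of other sets of genes were not compared, so whether the count of classes is particular to solute carriers was not tested.

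**Figure D1:**
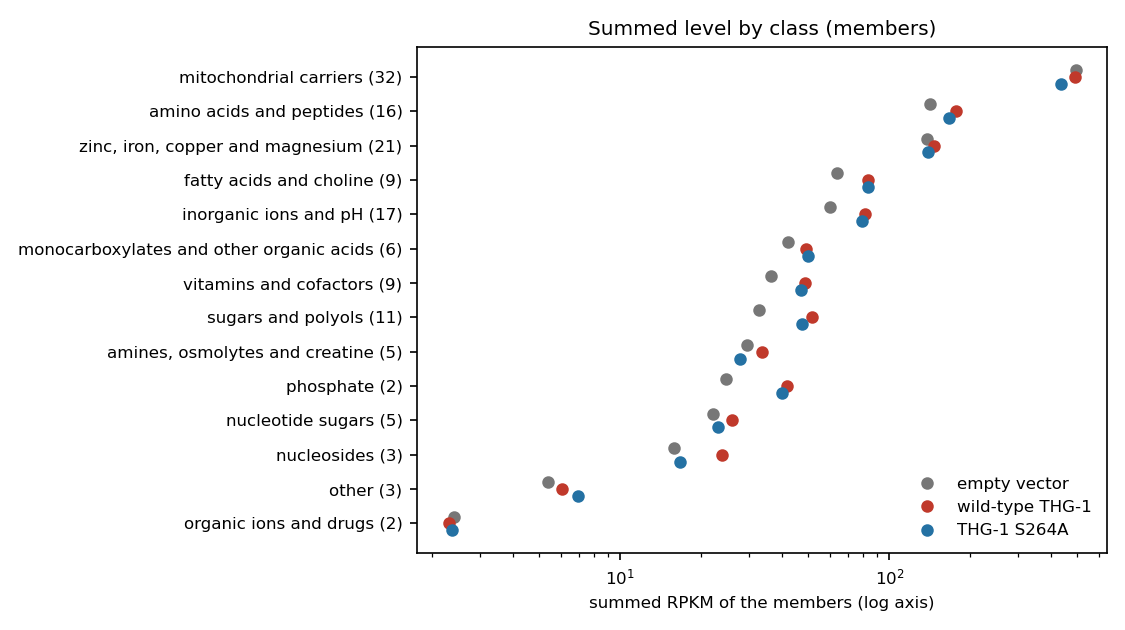
Summed RPKM of the members of each substrate class (log axis), 1 point per library in grey (empty vector), red (wild-type THG-1) and blue (S264A), with the number of members in brackets. Mitochondrial carriers lie at 435 to 492 RPKM, and in 11 of the 14 classes the grey point lies to the left of both others. The sum over all rows is also lowest with empty vector.

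Changes were measured as log2 of the ratio of RPKM + 1 among genes at 1 RPKM or more in at least 1 of the 2 libraries compared. A gene at least 2-fold apart on this scale is called past the rule. Ratios of plain RPKM carry a 95% counting interval (exact Clopper-Pearson) from the whole reads recovered from the RPKM steps. Reads are not independent molecules, and the intervals cover counting error only.

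With wild-type THG-1, 9 of 135 members (6.67%) lay 2-fold or more above empty vector and 0 lay 2-fold or more below it. Over all 11993 genes compared, 4.53% were higher and 1.54% lower by the same rule, 6.07% in either direction. The median log2 change was 0.13 for the members and -0.01 for all genes. With S264A, 8 of 137 members (5.84%) were higher and 0 lower, against 2.99% and 0.824% of 12010 genes (3.81% in either direction), and the medians were 0.08 for the members and 0.02 for all genes. These 2 comparisons share the empty-vector library. Between S264A and wild-type THG-1, 1 of 141 members was past the rule upward and 2 downward, against 1.55% and 2.23% of 12069 genes (3.78% in either direction), with medians of -0.03 and 0.02. At 1.5-fold, 29 members were higher and 2 lower with wild type, where 11.0% and 6.72% of all genes were. With S264A 23 were higher and 3 lower at 1.5-fold, where 8.56% and 3.97% of all genes were, 12.5% in either direction. Of the 121 members at 1 RPKM or more in all 3 libraries, 4 were higher with wild type, 4 with S264A and 0 lower with either. Over the 10402 genes that met the minimum in all 3 libraries, 2.89% were higher and 0.769% lower with wild type and 1.74% higher and 0.260% lower with S264A. Between both forms 0 of the 121 were past the rule, where 0.721% of these genes were higher and 1.21% lower. In all, 12 members passed the rule somewhere, and 95 of 141 (67.4%) stayed within 1.5-fold in every comparison, as did 72.7% of the 12379 genes at 1 RPKM or more in some library.

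Past the rule with both forms were SLC2A6, SLC43A3, SLC44A4, SLC4A11 and SLC52A3. SLC17A5, SLC5A1, SLC6A14 and SLC6A9 passed it with wild type, and SLC37A2, SLC39A2 and SLC7A8 with S264A. Passing in 1 comparison and not in the other does not show a difference between the forms, for which the direct comparison stands. That comparison passed the rule for SLC2A6 and SLC5A1 (lower in S264A) and for SLC7A8 (higher in S264A).

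**Figure D2:**
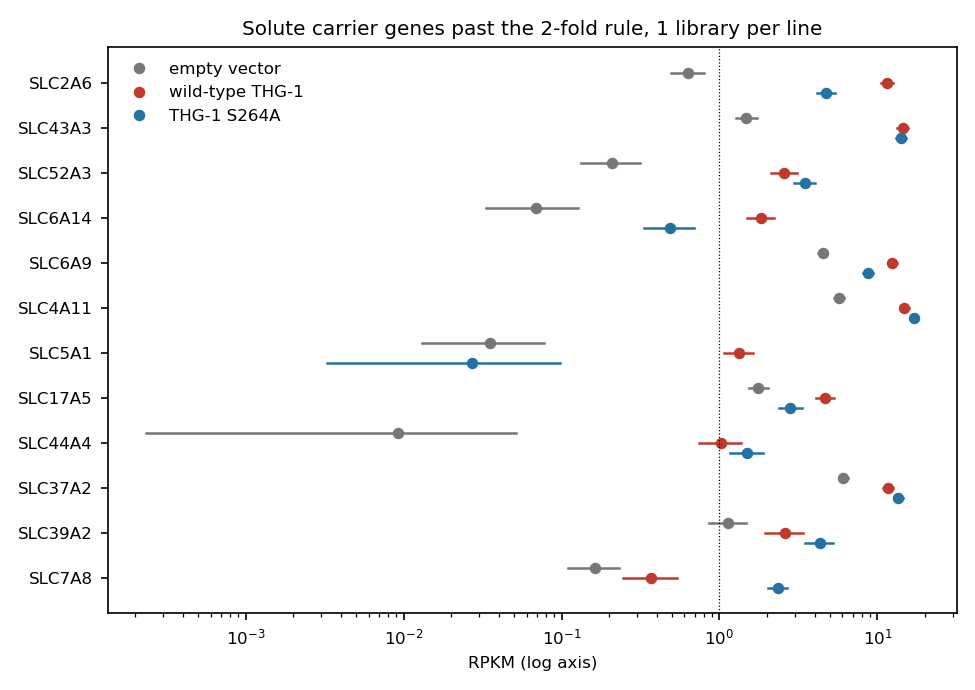
RPKM (log axis) of the 12 genes past the 2-fold rule in any comparison, in the empty-vector (grey), wild-type THG-1 (red) and S264A (blue) library, with exact Poisson 95% intervals from the reads as bars and 1 RPKM dotted. The grey point is the lowest in every gene except SLC5A1, where the S264A library held 2 reads and the empty-vector library 6.

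On the log2 RPKM + 1 scale, sugar carriers held the member with the largest change with wild type. SLC2A6, which encodes the facilitative hexose carrier GLUT6, stood at 0.635 RPKM with empty vector, 11.5 with wild-type THG-1 and 4.73 with S264A. The empty-vector line was lowest and the wild-type line highest. The ratio to empty vector was 18.2 (14.2 to 23.6) in the wild-type library and 7.46 (5.71 to 9.86) in the S264A library, and S264A was 2.44-fold lower than wild type (2.08 to 2.85). SLC5A1, which encodes the sodium-glucose cotransporter SGLT1, was at 0.0354, 1.32 and 0.0270 RPKM, or 6, 89 and 2 reads. It was thus near the floor in both lines without wild-type THG-1. The ratio of wild type to empty vector was 37.3 (16.5 to 104), and S264A was 49.0-fold lower than wild type (13.2 to 411). SLC2A12, another facilitative sugar carrier, was at 0.866, 2.57 and 0.862 RPKM. It was named after its values were seen, and its log2 changes of 0.93 against empty vector and -0.94 between S264A and wild type were under the rule. In the quantile-normalised columns the latter was -1.01, past the rule. SLC37A2, a sugar-phosphate exchanger of the endoplasmic reticulum, was at 6.09, 11.6 and 13.6 RPKM, with a ratio of 2.23 (2.04 to 2.44) for S264A and 1.91 (1.74 to 2.10) for wild type, the latter under the rule.

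The 11 sugar and polyol carriers as a class had a median log2 change of 0.07 with wild type, which became -0.06 with scaling to an equal sum, and 0.12 with S264A. Of the 11 compared with wild type, 2 were past the rule and 5 at least 1.5-fold apart, all higher. SLC5A1 and SLC2A12 met the minimum only through the wild-type library and had to be higher there. Without them 1 of 9 was past the rule and 3 of 9 were 1.5-fold apart, where 6.07% and 17.7% of all genes were in either direction. The highest member, SLC50A1, a sugar exporter of the SWEET family, lay close together in the 3 libraries at 10.9, 10.2 and 12.02 RPKM. SLC37A4, which carries glucose 6-phosphate into the endoplasmic reticulum, stood at 3.74, 3.97 and 4.15 RPKM. Differences of this class were therefore in single members rather than in its median.

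The upstream sequence is shown for SLC2A6, SLC5A1 and SLC6A14, the 3 genes past the rule with a single start listed that were highest with wild-type THG-1 and at least 2.44-fold lower with S264A. Each run is the 250 bases before the start in RefSeq, build GRCh38.p14, 5′ to 3′ on the gene's strand. The build of the expression table is hg19, and genes were matched by symbol. Capitals mark matches, on either strand, to AP-1 (TGANTCA), the antioxidant response element (TGACNNNGC), the metal response element (TGCACNC or TGCGCNC) or an NF-kB site.
SLC2A6 (chr9:133479100-133479349, minus strand): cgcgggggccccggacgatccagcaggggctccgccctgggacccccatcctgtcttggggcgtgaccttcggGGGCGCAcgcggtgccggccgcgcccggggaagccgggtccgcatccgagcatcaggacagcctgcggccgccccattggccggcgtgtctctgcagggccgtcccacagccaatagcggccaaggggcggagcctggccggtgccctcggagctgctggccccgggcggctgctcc
SLC5A1 (chr22:32043011-32043260, plus strand): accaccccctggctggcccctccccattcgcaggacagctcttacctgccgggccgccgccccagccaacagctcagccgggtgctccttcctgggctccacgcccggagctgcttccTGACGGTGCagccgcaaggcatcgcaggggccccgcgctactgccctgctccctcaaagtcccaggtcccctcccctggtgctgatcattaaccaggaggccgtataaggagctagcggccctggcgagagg
SLC6A14 (chrX:116436356-116436605, plus strand): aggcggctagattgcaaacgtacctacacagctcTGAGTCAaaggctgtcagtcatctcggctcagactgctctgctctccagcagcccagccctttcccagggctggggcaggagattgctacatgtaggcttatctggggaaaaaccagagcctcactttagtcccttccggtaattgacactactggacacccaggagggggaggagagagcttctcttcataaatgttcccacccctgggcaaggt

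SLC2A6 held 1 match to the TGCGCNC form, SLC5A1 1 match to the antioxidant element and SLC6A14 1 match to AP-1. No letters of these windows fitted the NF-kB site. A window was found for 113 of 141 members, using the first start listed for each gene. AP-1 matched in 7 of them (6.19%) and in 6.60% of 27303 gene windows, and the NF-kB site in 16 (14.2%) and in 9.57%. The antioxidant element matched in 18 members (15.9%) and in 11.04% of all windows, and either metal response form in 30 (26.5%) and in 24.7%. The AP-1 and antioxidant patterns can overlap in the same letters. Such matches describe letters and not binding.

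Among amino acid and peptide carriers SLC43A3 had the largest change on the RPKM + 1 scale in both lines with THG-1. It belongs to a family of amino acid carriers, although its own product is known to carry purine nucleobases. It stood at 1.48, 14.4 and 14.2 RPKM in the empty-vector, wild-type and S264A libraries. Both lines with THG-1 were high and lay next to each other, with ratios to empty vector of 9.75 (8.24 to 11.6) and 9.56 (8.10 to 11.4) and a ratio between the forms of 0.981 (0.882 to 1.09). In the GENCODE 29 annotation 29.9% of its exon length overlaps another gene on the same strand, and the sources used here do not say how shared reads were counted.

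SLC6A14, a carrier of neutral and cationic amino acids driven by sodium and chloride, was at 0.0690, 1.82 and 0.489 RPKM. The S264A line lay between both others. The ratio to empty vector was 26.4 (13.8 to 56.7) for wild type, from 10 reads with empty vector, and 7.09 (3.39 to 16.2) for S264A. SLC7A8, which encodes the light chain LAT2 of the neutral amino acid exchangers, was at 0.163, 0.370 and 2.34 RPKM. It was high in the S264A library alone, 14.4-fold above empty vector (9.81 to 21.7) and 6.32-fold above wild type (4.24 to 9.76). SLC6A14 and SLC7A8 are among the members that reached 1 RPKM in 1 library only.

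The most abundant members of the class lay within 1.5-fold. SLC1A5, the glutamine exchanger ASCT2, was at 71.8, 82.3 and 75.7 RPKM, and SLC38A1, a sodium-coupled glutamine carrier, at 20.9, 23.8 and 23.8 RPKM. The median log2 change of the class was 0.16 with wild type and 0.07 with S264A. With S264A 4 of the 15 compared lay 1.5-fold or more above empty vector and 0 as far below it, where 8.56% and 3.97% of all genes did. Of the 4, SLC7A8 was compared only through its S264A level, and without members that met the minimum in 1 library the count was 3 of 13. These 3 include SLC43A3, which is placed here by its family. Among lysosomal members SLC38A9, which signals lysosomal arginine to the mTORC1 kinase, was at 1.11, 1.14 and 1.07 RPKM and SLC15A4, a peptide and histidine carrier, at 2.11, 2.14 and 1.91 RPKM.

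Among carriers of amines, osmolytes and creatine 1 of 5 members passed the rule, higher with wild type, where 4.53% of all genes were. This member was SLC6A9, the glycine transporter GLYT1. Glycine is also an amino acid, so this count rests on the placement of SLC6A9 in this class. SLC6A9 stood at 4.49, 12.5 and 8.72 RPKM. The empty-vector line was lowest and the S264A line in between, with ratios to empty vector of 2.77 (2.51 to 3.07) and, under the rule, 1.94 (1.74 to 2.16). SLC6A8, the creatine transporter, was highest in this class and lay the other way, at 19.3, 13.6 and 12.2 RPKM, with log2 changes of -0.48 and -0.63. SLC6A11, a GABA transporter, was at 1.35, 1.48 and 2.49 RPKM, and SLC6A6, the taurine transporter, at 3.05, 4.70 and 3.82 RPKM.

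Vitamin carriers had a median log2 change of 0.38 with wild type and 0.09 with S264A over 9 members. SLC52A3, a riboflavin importer, passed the rule with both forms, at 0.208, 2.58 and 3.48 RPKM. Its ratio to empty vector was 12.4 (7.85 to 20.3) with wild type and 16.7 (10.8 to 27.1) with S264A, so that both lines with THG-1 were well above the control. The other riboflavin carrier, SLC52A2, was the highest member of the class and stood at 13.999, 16.9 and 12.3 RPKM. SLC48A1, a heme carrier of the endolysosome, was at 4.34, 7.01 and 8.94 RPKM, and SLC23A2, a sodium-coupled vitamin C importer, at 4.23, 6.64 and 7.87 RPKM. Their log2 changes with S264A, 0.90 and 0.76, were under the rule. Of the folate carriers in this class, SLC19A1 was highest with wild type, at 1.43, 2.16 and 1.59 RPKM. SLC46A1 was lowest with wild type, at 5.001, 3.57 and 4.05 RPKM. Neither passed the rule.

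Carriers of fatty acids and choline had medians of 0.40 with wild type and 0.27 with S264A. SLC44A4, a choline-like carrier known to take up thiamine pyrophosphate in the colon, had 1 read with empty vector, 44 with wild type and 71 with S264A, or 0.00926, 1.03 and 1.503 RPKM. The counting interval of its ratio to empty vector ran from 18.9 upward for wild type and from 28.2 upward for S264A. On the scale of the rule its change of 1.01 with wild type lay next to the threshold, and 1.31 with S264A above it. SLC44A2, a choline-like carrier, was highest at 25.03, 38.1 and 38.8 RPKM. SLC27A4, the fatty acid carrier FATP4 whose loss impairs the epidermal barrier in humans, stood at 16.9, 24.2 and 23.5 RPKM. In SLC44A2 and SLC27A4 both lines with THG-1 lay above the control by less than 2-fold. SLC27A3 was at 4.84, 2.50 and 3.13 RPKM and SLC27A2 at 7.78, 8.74 and 4.53 RPKM, so that the SLC27 family held changes of both signs.

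Of 17 ion and pH carriers, SLC4A11 was the only one past the rule in either comparison with empty vector. By the same rule 4.53% of all genes were higher with wild type and 2.99% with S264A. SLC4A11 belongs to the bicarbonate family and carries protons and ammonia, and it stood at 5.75, 14.8 and 17.1 RPKM. The ratio was 2.58 (2.33 to 2.86) with wild type and 2.97 (2.70 to 3.27) with S264A. SLC4A2, an anion exchanger, was at 8.27, 11.6 and 9.28 RPKM. The potassium-chloride cotransporter gene SLC12A7 was at 2.85, 6.26 and 3.26 RPKM, highest with wild type. Its log2 change of -0.77 between S264A and wild type was under the rule. The class median was 0.20 with wild type and 0.09 with S264A.

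Phosphate and nucleoside carriers are small classes with no member past the rule. SLC20A1, the phosphate importer PiT-1, was at 16.9, 28.8 and 31.3 RPKM, with ratios of 1.70 (1.61 to 1.80) and 1.85 (1.76 to 1.95), and SLC20A2 (PiT-2) at 7.89, 12.7 and 8.53 RPKM. SLC20A1 was thus above the control in both lines with THG-1, and SLC20A2 mainly in the wild-type line. The equilibrative nucleoside carriers SLC29A1 (7.61, 9.81 and 7.81 RPKM) and SLC29A2 (5.57, 9.41 and 4.82 RPKM) were highest with wild type. SLC29A3, the lysosomal member, was at 2.66, 4.56 and 4.09 RPKM. The median of the 3 was 0.60 with wild type and 0.03 with S264A, the latter turning to -0.01 in the quantile-normalised columns, with upper-quartile, median and equal-sum scaling alike.

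Organic acid carriers held 1 gene past the rule, 1 of 5 compared with wild type, where 4.53% of all genes were higher. This gene was SLC17A5, which encodes sialin, the lysosomal exporter of sialic acid. It was at 1.77, 4.66 and 2.81 RPKM, and its ratio of 2.64 (2.17 to 3.21) with wild type corresponds to 1.03 on the scale of the rule. The lactate and pyruvate carrier SLC16A1 (MCT1) was at 12.1, 14.1 and 13.8 RPKM. SLC10A6, a carrier of sulphated steroids, had 8, 4 and 23 reads, or 0.166, 0.209 and 1.09 RPKM. In the class left without a common substrate, SLC22A18 was at 2.58, 2.10 and 3.17 RPKM. Of the 2 organic ion carriers, the carnitine importer SLC22A5 was at 1.38, 1.04 and 1.01 RPKM and SLC22A20 at 1.04, 1.26 and 1.36 RPKM.

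Metal carriers were the second largest class by number, with 21 members. Of these 1 passed the rule, higher with S264A, where 2.99% of all genes were. SLC39A2, which encodes the zinc importer ZIP2, stood at 1.13, 2.59 and 4.30 RPKM, or 57, 52 and 95 reads. The empty-vector line was lowest and the S264A line highest, with ratios of 2.30 (1.55 to 3.40) for wild type, under the rule, and 3.81 (2.72 to 5.39) for S264A. The other 10 zinc importers of the SLC39 family did not pass the rule on the RPKM + 1 scale. SLC39A1 was the most abundant at 34.3, 34.3 and 32.6 RPKM, followed by SLC39A7, which releases zinc from the endoplasmic reticulum, at 16.7, 22.1 and 17.6 RPKM. SLC39A8, which also carries manganese, was at 0.862, 0.497 and 1.33 RPKM, a plain ratio of 2.68 (1.87 to 3.92) between S264A and wild type that was under the rule. SLC39A8 met the minimum only through the S264A library and had to be higher there.

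None of the 5 zinc exporters of the SLC30 family passed the rule. Their median log2 change was -0.30 with wild type and -0.20 with S264A. With wild type 3 were lower and 2 higher than empty vector. The lower ones were SLC30A5 at a ratio of 0.744 (0.639 to 0.864), SLC30A6 at 0.695 (0.586 to 0.820) and SLC30A9 at 0.759 (0.656 to 0.875). The plasma membrane exporter SLC30A1, 1 of the 2 higher, was at 3.58, 3.73 and 3.96 RPKM. The copper importer SLC31A1 was at 8.33, 7.68 and 10.1 RPKM and the iron carrier SLC11A2 at 2.83, 2.94 and 2.94 RPKM. The median of the metal class was 0.03 with wild type, turning to -0.03 with upper-quartile and -0.09 with equal-sum scaling, and 0.07 with S264A. Among 10 of 18 metal-handling genes compared beside the carriers, MT2A and MT1F, which encode metallothioneins, were past the rule and higher with wild type. By the same rule 4.53% of all genes were higher with wild type. FTL, which encodes ferritin light chain, was past the rule and higher with S264A, as were 2.99% of all genes. MT2A was at 68.2, 162 and 111 RPKM and FTL at 152, 227 and 312 RPKM. Other genes of these kinds lay differently and under the rule, with FTH1, ferritin heavy chain, at 857, 859 and 613 RPKM and the metallothionein gene MT1X at 22.3, 20.2 and 35.1 RPKM. Metallothionein and ferritin genes have near-identical copies, so that their counts are uncertain.

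None of the 32 mitochondrial carriers of the SLC25 family passed the rule in any comparison. Of all genes, 6.07% passed it with wild type, 3.81% with S264A and 3.78% between both forms. Within 1.5-fold throughout were 26 of the 32 carriers (81.2%), against 72.7% of all genes. With wild type 5 of 32 (15.6%) were 1.5-fold or more apart from empty vector, near the 17.7% of all genes, and with S264A 2 of 31 (6.45%), against 12.5%. Their median log2 change was -0.10 with wild type, -0.08 with S264A and -0.09 between both forms, and these medians stayed below 0 in the quantile-normalised columns and under 3 other scalings. The members outside SLC25 had medians of 0.16, 0.11 and -0.02. Between S264A and wild type 0 of 32 SLC25 members were at least 1.5-fold apart, against 17 of 109 other members (15.6%) and 13.8% of all genes. Of the 10 members that met the minimum in 1 library only, SLC25A16 alone belongs to SLC25. Several of the others are among the 17 and had to differ, so that these shares are not alike in their selection. The difference between SLC25 and the other families is a description, without replicates to test it.

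SLC25A5 and SLC25A6, which encode the ADP/ATP carriers ANT2 and ANT3, were the most abundant members. SLC25A5 was at 180, 163 and 159 RPKM and SLC25A6 at 84.1, 79.6 and 58.2 RPKM, lowest with S264A at a ratio to empty vector of 0.692 (0.656 to 0.730). Both have processed pseudogenes with shared sequence. The phosphate carrier SLC25A3 was at 41.8, 43.0 and 41.1 RPKM and the citrate carrier SLC25A1 at 41.1, 43.9 and 33.2 RPKM. The largest change of the family was in SLC25A29, a carrier of basic amino acids, at 0.628, 2.00 and 1.66 RPKM, with log2 changes of 0.88 and 0.71. SLC25A15, the ornithine carrier, had the largest change between both forms, 0.52, at 4.59, 3.55 and 5.51 RPKM. The iron importers SLC25A37 and SLC25A28 (mitoferrins) were at 3.64, 4.12 and 3.80 RPKM and at 10.6, 11.03 and 8.06 RPKM.

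**Figure D3:**
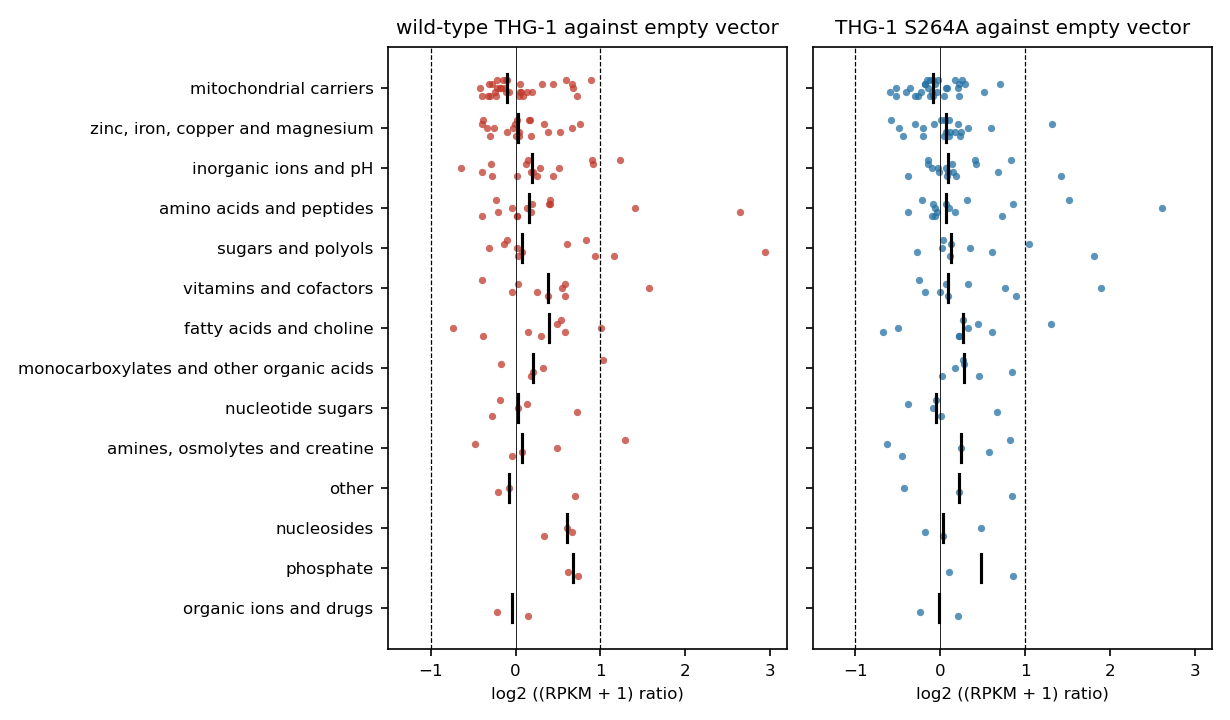
Log2 ratio of RPKM + 1 against empty vector for each member compared, by substrate class, with wild-type THG-1 on the left and S264A on the right; black bars are class medians and dashed lines the 2-fold rule. No point lies below -1, and the mitochondrial carriers lie within -0.59 and 0.88 with medians of -0.10 and -0.08.

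The 5 nucleotide sugar carriers of the SLC35A group had medians of 0.03 with wild type, turning to -0.03 and -0.08 with upper-quartile and equal-sum scaling, and -0.05 with S264A. SLC35A2, which brings UDP-galactose into the Golgi, was at 5.03, 8.96 and 8.63 RPKM. SLC35A1, the carrier of CMP-sialic acid, was at 1.97, 1.46 and 2.00 RPKM. SLC35A4 was the most abundant at 9.27, 10.3 and 6.93 RPKM. None of the 5 passed the rule.

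The direct comparison of S264A with wild type does not use the empty-vector library. Beside SLC2A6, SLC5A1 and SLC7A8, the largest log2 changes were those of SLC2A12 (-0.94), SLC6A14 (-0.92), SLC29A2 (-0.84), SLC27A2 (-0.82) and SLC10A6 (0.79). All 5 were under the rule, and SLC2A12, SLC6A14 and SLC10A6 met the minimum in 1 library only. At 1.5-fold, 7 of 141 members were higher and 10 lower in S264A, against 6.65% and 7.13% of all genes. Sugar carriers held 4 of these 17 (of 11 compared) and ion carriers 5 (of 17 compared), where 13.8% of all genes were 1.5-fold apart. Some of them met the minimum in 1 library only and had to differ. Without such members, 1 of 9 sugar carriers was higher and 1 lower. Of 16 ion carriers, 1 was higher and 3 lower.

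**Figure D4:**
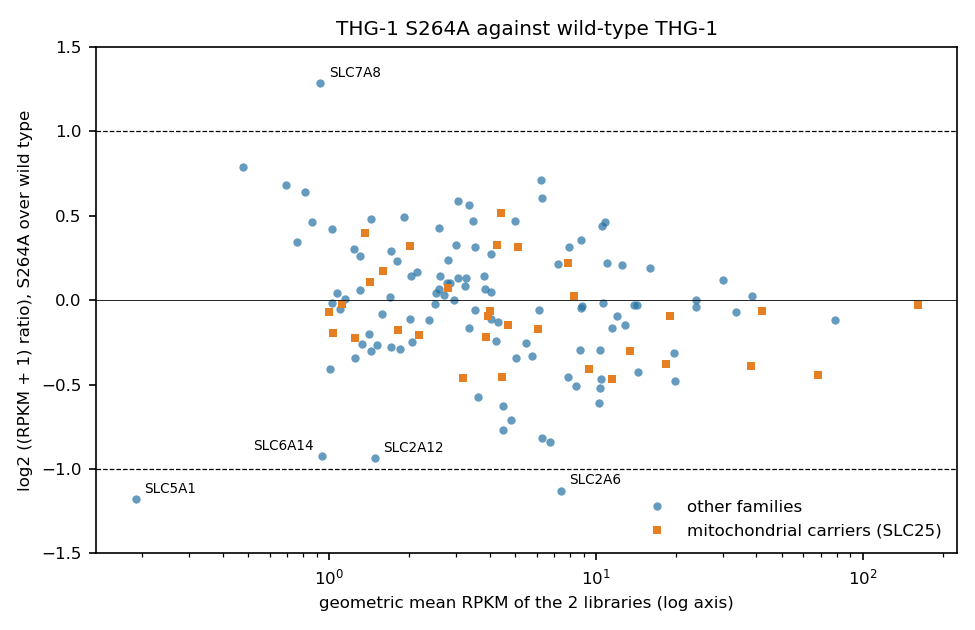
Log2 ratio of RPKM + 1 between S264A and wild-type THG-1 against the geometric mean RPKM of both libraries (log axis) for the 141 members, with mitochondrial carriers as orange squares and dashed lines at the 2-fold rule. SLC7A8 lies above the upper line, SLC2A6 and SLC5A1 lie below the lower line, and no orange square reaches 1.5-fold.

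Transport genes beside the members behaved as follows. Of 45 other SLC and SLCO symbols, 24 reached 1 RPKM. With wild type 1 of 23 compared was past the rule upward and 1 downward, where 4.53% and 1.54% of all genes were. With S264A 1 of 23 was past it, upward, against 2.99% of all genes. SLCO4A1, an organic anion carrier of the plasma membrane, was past the rule with both forms, at 4.64, 13.5 and 10.8 RPKM. SLCO1B3, an organic anion carrier known mainly from hepatocytes, was 11.5-fold lower with wild type (7.14 to 19.98). It stood at 4.13, 0.357 and 2.79 RPKM, lowest in the wild-type line. In a list of 16 sodium pump subunits and transporter partners, 11 were compared. FXYD5, which modulates the sodium pump, was at 7.52, 35.003 and 15.4 RPKM and SLC9A3R2, a scaffold protein of SLC9A3, at 2.43, 5.97 and 4.48 RPKM. Both were past the rule with wild type, 2 of the 11 compared, where 4.53% of all genes were higher. ATP1B1, the pump's beta subunit, was at 13.3, 25.5 and 11.3 RPKM. ATP1B1 and FXYD5 were past the rule between both forms, lower in S264A, as were 2.23% of all genes. BSG, the chaperone of the lactate carriers, was at 80.2, 107 and 101 RPKM.

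Overlapping genes limit some of these values. In GENCODE release 29, which belongs to another build and served only to list overlaps, more than 20% of the exon length overlaps another gene in 13 of the 140 members found there. Besides SLC43A3 they include SLC39A1, SLC1A5, SLC7A6, SLC31A2, SLC52A2, SLC2A12 (38.9%), SLC46A1 (61.5%) and SLC35A1 (55.5%). The sources used here do not say whether counting used strand.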

How the data were processed

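RNA sequencing of 3 HaCaT lines, 1 library each, was analysed. The deposited table holds, per the file headers, expression values for each library, which are RPKM computed by the authors, and normalised values, which on testing were RPKM quantile-normalised across the 3 libraries. Per the submitters' processing notes the build was hg19, and aligner, counting program and annotation were not given in the sources used here. Where a symbol had several rows (234 symbols) the row with the highest mean represented it among all genes. Library depths were taken from genes with 1 exon, where 1 read is the commonest count, and whole reads from gene lengths at which all 3 values came out whole within 0.001 reads (58 of 141 members by the fitting length nearest to that of GENCODE, 82 by that length itself and 1, SLC22A20, by the smallest length that fitted, which can widen its interval). The recovery was tested on simulated data. Fold changes used a pseudocount of 1 and a minimum of 1 RPKM in 1 of the 2 libraries, with no test. Named genes were those past the 2-fold rule, and in each class the 2 highest and the most changed in each comparison, and other members were named for their function after their values were seen. A few named genes are not reported here. Members and lists were chosen with earlier results of these data known. Alternatives covered pseudocount, filter, scaling and threshold. Python 3.11.15, numpy 2.4.6, pandas 2.3.3, scipy 1.17.1 and matplotlib 3.10.9 were used.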

Additional observations from a re-analysis of the deposited data

How the results depend on the processing

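No paired analysis was possible because each line has 1 library, and no replicate could be left out. Members higher with wild type (9) numbered 15 with a pseudocount of 0.1, 2 with a pseudocount of 5, 4 with a filter at 5 RPKM, 29 at 1.5-fold and 2 at 3-fold, and members lower (0) numbered 2 at 1.5-fold. Members higher with S264A (8) numbered 14, 2, 3, 23 and 3 under the same settings, and members lower (0) numbered 3 at 1.5-fold. Between S264A and wild type, members higher (1) numbered 4, 0, 0, 7 and 0 and members lower (2) numbered 4, 0, 1, 10 and 0. A larger pseudocount, a higher filter and a higher threshold by construction pass fewer low genes. The median change of members with wild type, 0.13, became 0.25 with the 5 RPKM filter and -0.0090 with equal-sum scaling, and that between both forms, -0.03, became 0.058 with equal-sum scaling. That scaling moved the median of all genes with wild type from -0.01 to -0.13 and the share of higher genes among those past the rule from 74.6% to 62.9%. Counts of members stayed within 1.5 times of the main count in the quantile-normalised columns and under the 3 scalings. Among single genes SLC17A5 and SLC44A4 with wild type dropped under the rule with upper-quartile and equal-sum scaling, and SLC37A2 with S264A with upper-quartile and median scaling. SLC2A12 passed the rule between both forms (-1.01) in the quantile-normalised columns. No named gene past the rule changed sign under the pseudocounts and scalings tried. Depth limits genes near 1 RPKM, and culture-to-culture variation is unknown.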

Other observations

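Some solute carrier rows below 1 RPKM in every library still differed between libraries by more than counting error. SLC16A7, the monocarboxylate carrier MCT2, was at 0.792 RPKM with empty vector, 0.0978 with wild-type THG-1 and 0.200 with S264A, or 326, 16 and 36 reads. It was thus high in the control alone, with ratios of 0.124 (95% counting interval 0.0698 to 0.204) and 0.252 (0.174 to 0.357). SLC15A3, a lysosomal peptide carrier, lay the other way, at 0.0714, 0.513 and 0.886 RPKM, with ratios of 7.19 (3.83 to 14.3) and 12.4 (6.96 to 23.8). SLC38A4, an amino acid carrier, had 9 reads with empty vector, 0 with wild type and 28 with S264A. SLC41A2, a magnesium carrier, had 67, 16 and 3 reads. These 4 genes were named after their values were seen.

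SLC5A3, the myo-inositol carrier, and SLC25A10, the mitochondrial dicarboxylate carrier, each have 2 rows with a numbered symbol and so fell outside the chosen pattern. The SLC5A3 rows were at 1.18, 1.11 and 1.11 RPKM and at 1.05, 1.05 and 1.32 RPKM. The SLC25A10 rows were at 1.43, 1.17 and 1.42 RPKM and at 12.3, 13.9 and 12.7 RPKM. None of the 4 rows was past the 2-fold rule.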
